A study of Mus musculus with 860 samples.

Results

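Cluster 5 was 1 of the clusters that the authors drew by the Louvain method, which groups cells with like RNA profiles, among single cells of the mouse aorta-gonad-mesonephros (AGM), the embryonic region where blood stem cells first appear. Its members were taken as all cells with that cluster number in the deposited cell annotation, and there were 57 of them among 775 cells that passed the authors' quality filters, out of 860 sequenced. The cells came from AGMs of E10.5 and E11.5 embryos of the strain given as CD1/Gf1+ (Thambyrajah et al 2015), in which a tomato reporter marks GFI1, and no cell received a treatment. They were index sorted, so that the fluorescence of each cell was kept, through 3 gates: GFI1+ hemogenic endothelium (HE; CD31+ GFI1+ cKIT-), GFI1+ intra-aortic hematopoietic cluster cells (IAHC; CD31+ GFI1+ cKIT+) and GFI1- IAHC (CD31+ GFI1- cKIT+). RNA of each cell was read by Smart-Seq2, a full-length protocol without molecular identifiers, in 4 batches named GL53, GL58, GL69 and GL78. At E10.5, cluster 5 held 12 cells from the GFI1+ HE gate, 19 from the GFI1+ IAHC gate and none from the GFI1- IAHC gate. At E11.5 these gates gave it 12, 11 and 3 cells.

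Before a cell copies its DNA, the origin recognition complex, CDC6 and CDT1 load the MCM helicase onto chromatin, a step called licensing. E2F transcription factors, released at the passage from G1 to S phase, switch on many of the genes for licensing, for the replication fork and for nucleotide supply, while the genes for mitosis are switched on later, in G2. Aplnr encodes the apelin receptor, which in mouse embryos marks venous and plexus endothelium, and the arterial endothelium from which blood cells bud carries instead connexins such as Gja4 and Gja5 and active Notch signalling.

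The clusters were drawn from the same RNA values that are compared here, so every difference in RNA between cluster 5 and other clusters is a description and carries no test. The embryos were pooled and the labels tie no cell to an animal, so that a group of cells counts as 1 sample. Counts were summed over the cells of a cluster within a batch and given as CPM, the share of all counts times 1000000. Ratios were taken within a batch on the log2(CPM + 1) scale and averaged over GL53, GL69 and GL78 with equal weight, given with the SD over these 3 batches. GL58 held 4 cells of cluster 5, too few for this comparison. Clusters 0 to 4, with 604 cells, were the cells set against cluster 5, the smaller clusters were not used, and a gene is counted below as higher or lower only where the difference reached 2-fold, in 1 direction, in every batch used.

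The genes that mark cluster 5 carry, in part, the letters that E2F factors are known to bind. The windows of RefSeq promoters (GRCm38.p6, 250 bases before to 50 bases after the annotated start) are shown for the 3 markers that held a match, with matches to TTTGGCGC, TTTCCCGC, TTTCGCGC or TTTGCCGC on either strand in capitals. Cdc6, the loader of the MCM helicase, held 1 match, at −138 from the RefSeq start, which lies inside the gene as GENCODE draws it (its start is given with the levels of Cdc6). Mcm5, a helicase subunit, held 2 overlapping matches, at −153 and −149. Uhrf1, which guides DNA methylation to newly copied DNA, held 1 at −185. That Uhrf1 window also lies inside the gene as GENCODE draws it, which starts at 56303321.
Cdc6 (chr11:98907901-98908200, + strand): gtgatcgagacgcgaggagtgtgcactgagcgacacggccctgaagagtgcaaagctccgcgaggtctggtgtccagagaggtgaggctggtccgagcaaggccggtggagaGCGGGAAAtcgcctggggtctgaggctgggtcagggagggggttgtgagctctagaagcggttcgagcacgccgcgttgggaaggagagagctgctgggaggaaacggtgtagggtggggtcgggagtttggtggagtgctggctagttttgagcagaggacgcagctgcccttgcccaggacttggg
Mcm5 (chr8:75109259-75109558, + strand): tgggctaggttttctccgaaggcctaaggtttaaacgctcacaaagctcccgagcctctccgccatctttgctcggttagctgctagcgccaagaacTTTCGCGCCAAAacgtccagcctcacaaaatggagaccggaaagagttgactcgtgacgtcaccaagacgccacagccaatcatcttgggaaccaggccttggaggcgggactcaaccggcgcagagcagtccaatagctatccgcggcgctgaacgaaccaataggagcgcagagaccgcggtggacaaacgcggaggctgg
Uhrf1 (chr17:56304063-56304362, + strand): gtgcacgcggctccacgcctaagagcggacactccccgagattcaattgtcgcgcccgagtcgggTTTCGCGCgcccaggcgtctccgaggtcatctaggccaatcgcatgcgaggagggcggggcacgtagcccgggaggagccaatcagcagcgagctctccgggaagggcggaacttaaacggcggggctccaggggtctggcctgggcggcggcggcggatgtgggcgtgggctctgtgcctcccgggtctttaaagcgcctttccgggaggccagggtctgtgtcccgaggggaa
A second Uhrf1 window (chr17:56303087-56303386), the one that holds the GENCODE start of the gene, had no match. The windows of Rrm2, the small subunit of ribonucleotide reductase, and Ung, the uracil DNA glycosylase, held none either. Aplnr and Ccne2 had no entry in the promoter table.

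Such a match was found in 704 of 27025 genes with a RefSeq promoter (2.605%). It was found in 7 of 13 licensing genes (53.8%), 8 of 24 replication fork genes (33.3%), 4 of 9 genes for the chromatin of copied DNA (44.4%) and 7 of 10 G1/S regulators (70%). None of 14 nucleotide supply genes held one, and 1 of 21 mitosis genes did, Cdk1. The mitosis promoters held other letters more often: CCAAT, in either strand, stood in 18 of 21 (85.7%) against 41.1% of all genes, and TTTGAA or TTCGAA, in either strand, stood in 16 of 21 (76.2%) against 21.7%. A match is a run of letters and was not tested as a binding site.

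Markers of the endothelium were found in cluster 5 cell by cell. Pecam1, Cdh5, Kdr, Tie1 and Emcn, all general endothelial genes, each had reads in 56 of its 57 cells, and so did Aplnr. The remaining cell had no read of any of these 6 genes. That cell, an E11.5 GFI1- IAHC cell of GL78, had reads of 9 of 10 macrophage genes, 3466 CPM in sum, with 1367 CPM of Csf1r, the receptor of macrophage growth factor, and 310.6 CPM of Ptprc, which encodes CD45. The other 56 cells had reads of 0 to 2 of the macrophage genes, with summed levels of 0 to 220 CPM, and none had a read of Ptprc, Tyrobp, Adgre1 or C1qa. Its depth of 360599 counts was the lowest in cluster 5, its CD45 fluorescence was 5032 and its CD31 fluorescence 1518. Without it, a choice made after its values were seen, 0.0840% of genes were at least 2-fold higher and 2.82% at least 2-fold lower than in clusters 0 to 4 (0.0838% and 2.64% with it), and the median log2 ratio was 0.73 over the licensing genes described below and −0.71 over the mitosis genes.

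The share of cells that fell into cluster 5 differed between batches. Of the kept cells it was 6.46% in GL53 (21 cells; exact 95% interval 4.04 to 9.71%), 5.97% in GL58 (4 cells; 1.65 to 14.6%), 41.4% in GL69 (12 cells; 23.5 to 61.1%) and 5.65% in GL78 (20 cells; 3.48 to 8.59%). GL69 held only E10.5 GFI1+ IAHC cells from 1 plate, so that batch, plate, stage and gate cannot be told apart there. These intervals, like the others here, cover counting error only.

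Stage could be compared within 2 batches, but not apart from plate. In GL78 stage and plate cannot be told apart. In GL58 1 plate held 48 kept cells and 0 cells of cluster 5, and the part of plate was not tested. In GL78 cluster 5 took 5 of the cells at E11.5 (2.89%; 0.945 to 6.62%), against 15 of those at E10.5 (8.29%; 4.71 to 13.3%), intervals that overlap. In GL58 it took 0 of 49 cells at E11.5 (0 to 7.25%), against 4 of 18 at E10.5 (22.2%; 6.41 to 47.6%), and within the GFI1+ HE gate of that batch 0 of 19 against 4 of 18. Over all batches it took 26 of 547 cells at E11.5 (4.75%), against 31 cells at E10.5 (13.6%), or 19 cells when GL69 was left out (9.55%). Both stages thus contributed cells. The share of GFI1+ HE in cluster 5, 24 cells (8.54%; 5.55 to 12.4%), lay beside 30 cells of GFI1+ IAHC (8.43%; 5.76 to 11.8%), of which 12 came from GL69; without that batch GFI1+ IAHC gave 18 cells (5.50%; 3.29 to 8.56%). It was 3 cells in GFI1- IAHC (2.17%; 0.451 to 6.22%), the macrophage-marked cell among them. Within GL53, all at E11.5, it was 9.73% of GFI1+ HE (11 cells), 7.44% of GFI1+ IAHC (9 cells) and 1.10% of GFI1- IAHC (1 cell). The intervals of GFI1+ HE (4.96 to 16.8%) and GFI1+ IAHC (3.46 to 13.7%) there overlap.

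**Figure D1:**
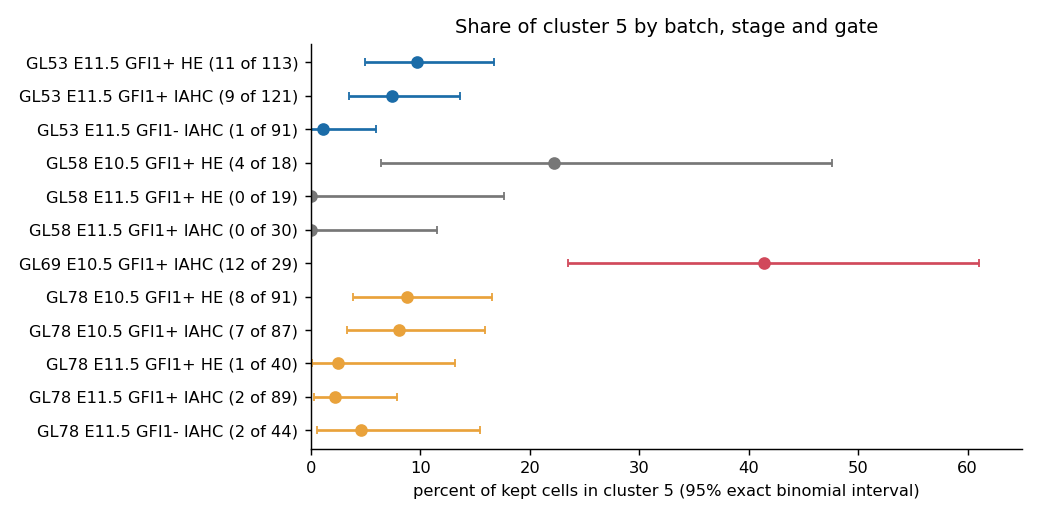
Share of kept cells in cluster 5 by batch, stage and gate, in percent on the horizontal axis, with exact 95% binomial intervals and cell numbers in brackets; each colour is 1 batch. GL69 stands apart at 41.4%, and the other points with more than 50 cells lie below 10%.

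The depth of cluster 5 cells ranged between 360599 and 1368602 counts, with a median of 830079, against a median of 733436 in clusters 0 to 4. Its cells had a median of 8372 genes with reads, against 7304, and 6086 against 5540.5 when every cell was thinned to 50000 counts. Counts of mitochondrial genes were 1.62% in cluster 5 and 1.78% in clusters 0 to 4 at the median.

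S phase was more frequent in cluster 5 than in clusters 0 to 4. The authors' phase calls came from Cyclone, a classifier that reads the RNA of cell cycle genes, so that they share their source with the levels below. The calls put 25 of 57 cells in S (43.9%; 30.7 to 57.6%), 18 in G1 (31.6%) and 14 in G2M (24.6%). In clusters 0 to 4 they put 35 of 604 cells in S (5.79%; 4.07 to 7.97%), 51.7% in G1 and 42.5% in G2M. By batch, S held 28.6% of cluster 5 in GL53 (6 of 21 cells) against 4.86% of clusters 0 to 4, 6 of 12 against 3 of 16 cells in GL69, and 60% in GL78 (12 of 20 cells) against 5.54%. The difference was 23.7 percentage points in GL53, 31.3 in GL69 and 54.5 in GL78, and cluster 5 had the larger share in all 3 batches. Within cluster 5, S was the most frequent phase in GL69 and GL78 and the least frequent in GL53, which had 8 cells in G1, 7 in G2M and 6 in S, and of its 4 cells in GL58 1 was in S. Cluster 5 held 25 of all 83 kept S cells (30.1%) and cluster 2, where 96.3% of cells had reads of the blood factor Runx1, held 19. The authors had regressed cell cycle effects out before clustering.

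The markers given with the cluster were high in it in each batch. Cdc6 (chr11:98907801-98923940, + strand, GRCm38) had 148.8 CPM in GL53, 237.5 CPM in GL69 and 286.7 CPM in GL78 in cluster 5, against 29.003, 73.3 and 64.4 CPM in clusters 0 to 4. Its log2 ratio was 2.05 ± 0.33 (SD, n = 3 batches), the values of cluster 5 and of clusters 0 to 4 did not overlap, and 52 of 57 cells had reads. No other cluster went above 81.3 CPM of Cdc6 in a batch with at least 5 of its cells.

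Mcm5 had 548.4, 524.3 and 606.4 CPM in cluster 5 in GL53, GL69 and GL78, against 192.6, 449.5 and 324.2 CPM in clusters 0 to 4, a log2 ratio of 0.88 ± 0.64. Rrm2, which makes deoxynucleotides, had 474.8, 717.2 and 562.0 CPM against 140.9, 499.8 and 213.8 CPM, a log2 ratio of 1.22 ± 0.63. Uhrf1 had 352.5, 482.3 and 459.9 CPM against 123.6, 352.1 and 272.1 CPM, a log2 ratio of 0.90 ± 0.54. All 3 genes were higher in cluster 5 in every batch, and by least in GL69. The phase calls put 0 of the 16 GL69 cells of clusters 0 to 4 in G1, 3 in S and 13 in G2M. In GL53 66.4% of the cells of clusters 0 to 4 were in G1, so the ratios of these batches rest on unlike cells. What this did to the ratios in GL69, here and for the lists below, was not tested. There cluster 2 had slightly more Mcm5 (543.3 CPM) and Uhrf1 (501.5 CPM) than cluster 5.

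Aplnr (chr2:85136225-85139923, + strand, GRCm38) was shared with clusters 0, 1 and 3. It had 1338, 887.3 and 990.4 CPM in cluster 5 in GL53, GL69 and GL78, against 1540, 949.5 and 1187 CPM in cluster 0. Cluster 1 had 1051 and 744.0 CPM and cluster 3 had 1538 and 1034 CPM in GL53 and GL78, and clusters 2 and 4 did not exceed 13.2 CPM in any batch. Against clusters 0 to 4 together the log2 ratio of Aplnr was 0.42 ± 0.12, and against clusters 0, 1 and 3 it was −0.10, so the gene set cluster 5 apart from clusters 2 and 4 and not from the other 3 together.

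**Figure D2:**
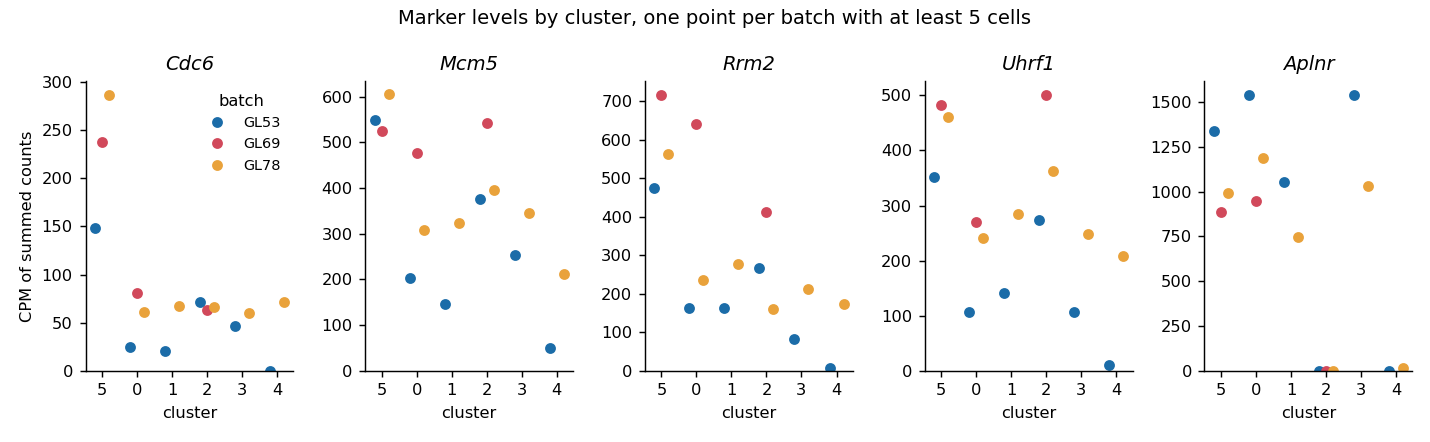
Levels of the 5 marker genes in CPM of summed counts (vertical axis, from 0) in cluster 5 and clusters 0 to 4, with 1 point for each batch that held at least 5 cells of the cluster. Cdc6 lies at 148.8 to 286.7 CPM in cluster 5 and at most at 81.3 CPM elsewhere, while Aplnr is as high in clusters 0 and 3 as in cluster 5.

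Over all genes, few reached the 2-fold rule in the upward direction. Of 9544 genes with at least 10 CPM on either side, 8 were higher in cluster 5 than in clusters 0 to 4 (0.0838%) and 2.64% were lower. The 8 included Ung, Cdc6, Ccne2 and Tcf19, the 4 that also had at least 10 CPM and reads in at least 25% of cluster 5 cells in each batch. The other 4, Cdk18, Lpl, Nsg1 and 8030462N17Rik, are named because the count is small; they had between 10.3 and 17.4 CPM in cluster 5. The counts moved with the batches used: without GL69 32 genes were higher (0.329%) and 5.34% lower, without GL53 24 were higher (0.257%) and 4.22% lower, and without GL78 29 were higher (0.303%) and 3.77% lower.

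Ung (chr5:114130386-114139323, + strand), which removes uracil from DNA, had 127.02, 143.6 and 228.2 CPM in cluster 5 in GL53, GL69 and GL78, against 28.6, 24.9 and 68.9 CPM in clusters 0 to 4, a log2 ratio of 2.10 ± 0.38. Ccne2 (chr4:11191351-11204779, + strand), the cyclin E2 that drives entry into S phase, had 46.5, 46.1 and 40.9 CPM against 9.34, 17.8 and 11.1 CPM, a log2 ratio of 1.77 ± 0.44. The values of cluster 5 lay above all those of clusters 0 to 4 for both genes, and Ccne2 overlaps Ints8 on the other strand. Tcf19 (chr17:35512734-35516824, − strand), a nuclear factor of cycling cells, had 112.05, 77.6 and 89.5 CPM against 29.7, 35.99 and 42.97 CPM, a log2 ratio of 1.34 ± 0.47.

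The phase of the cells moved with these calls. When cells of the same phase were compared in GL53 and GL78, Ccne2 was the 1 gene at least 2-fold higher in each phase and batch with at least 5 cells of cluster 5 (0.0102% of genes), with a log2 ratio of 1.56. Cdc6 had 1.47 and Tcf19 1.04, both above 0 in all of these. Ung had 0.98, with 2.57 and 1.45 in G1 cells of GL53 and GL78 and 0.57 and 0.15 in S cells.

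The licensing genes as a list lay above all genes. The median log2 ratio over 15 licensing genes was 0.72, with 1.25 in GL53, 0.25 in GL69 and 0.75 in GL78, while the median of all genes was −0.09. Cdc6 was the 1 member called higher, none was lower, and 10 of 15 were above 0 in every batch, against 15.6% of all genes. Such a share was not limited to replication genes. It was 11 of 15 for glycolysis, 8 of 15 for ribosome biogenesis and 6 of 16 for ribosomal protein genes. Cdt1, the partner of CDC6, had 212.8, 206.01 and 285.9 CPM in cluster 5 against 78.6, 146.95 and 132.4 CPM in clusters 0 to 4, a log2 ratio of 1.00 ± 0.48. Mcm10, which helps to start the helicase, had a log2 ratio of 1.20 ± 0.81 and Mcm4, a helicase subunit, 0.96 ± 0.53. Dbf4, the activator of the CDC7 kinase, had 0.05 ± 0.39, and Gmnn, the inhibitor of CDT1, 0.60 ± 0.96. The subunits of the helicase, Mcm2 to Mcm7, had log2 ratios between 0.60 and 0.96, and Mcm6 was at 0.00 in GL69.

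At the replication fork the median over 31 measured genes of 32 was 0.56, with 1.03, 0.13 and 0.52 in GL53, GL69 and GL78. None was called in either direction, and Fen1, the flap endonuclease, was below the 10 CPM limit. Cdc45, which travels with the helicase, had 221.3, 187.9 and 156.8 CPM in cluster 5 against 48.9, 94.2 and 90.4 CPM, a log2 ratio of 1.31 ± 0.74. Pcna, the sliding clamp, had 472.6, 440.1 and 389.3 CPM against 179.3, 292.6 and 242.7 CPM, a log2 ratio of 0.89 ± 0.44. Rpa2, of the single strand binding complex, had 0.93 ± 0.21. Rfc2, Rfc5 and Gins4 were at 0.08, 0.13 and 0.10, all near 0.

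The other S phase lists lay in the same range. Nucleotide supply had a median of 0.52 over 15 genes, with Dck, a salvage kinase, at 0.84 ± 0.04. S phase DNA repair had 0.40 over 15 genes, with Chek1, the kinase of stalled forks, at 70.997, 74.4 and 31.99 CPM in cluster 5 against 20.1, 36.4 and 20.9 CPM. G1/S regulators had 0.68 over 11 genes with Ccne2 called higher, Ccne1 at 1.09 ± 1.05 and Rbl1, a pocket protein that holds E2F back, at −0.58 ± 0.53. Genes for the chromatin of copied DNA had 0.69 over 10 genes, and all 10 were above 0 in every batch. Among them Chaf1a, of the histone chaperone at the fork, had 103.8, 117.7 and 144.5 CPM in cluster 5 against 24.97, 88.1 and 54.9 CPM in clusters 0 to 4.

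Genes of mitosis did not follow in the summed counts. Their median over 25 genes was −0.72, with −0.08 in GL53, −1.04 in GL69 and −1.04 in GL78; none was called, and 14 were below 0 in every batch, against 25.9% of all genes. Cdc20, which starts the exit from mitosis, had 118.7, 207.6 and 206.02 CPM in cluster 5 against 239.4, 409.2 and 426.0 CPM in clusters 0 to 4, a log2 ratio of −1.01 ± 0.03. Plk1, a mitotic kinase, had 113.05, 143.1 and 29.6 CPM against 122.98, 367.98 and 206.04 CPM. Top2a, which untangles copied DNA, had 487.0, 263.4 and 122.3 CPM against 286.5, 532.4 and 255.96 CPM, higher in cluster 5 in GL53 and lower in the other 2 batches. When cells of the same phase were compared the median of the list was 0.04, so its direction was not kept. Added up in each cell, these 25 genes had a median of 2633 CPM in cluster 5 and 1959.5 CPM in clusters 0 to 4. The upper quartiles, 3438 and 6671 CPM, went the other way. By batch the medians were 2454, 3236 and 2356 CPM in GL53, GL69 and GL78, against 774.9, 5698 and 2721 CPM. They were 1499 against 347.6 CPM in G1, 2847 against 3055 CPM in S and 5174 against 7370 CPM in G2M cells. Of the cells of cluster 5, 24.6% were in G2M against 42.5% in clusters 0 to 4, and in GL53 33.3% against 28.7%, the other way round.

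Among the D cyclins and inhibitors, Cdkn1a, which encodes the CDK inhibitor p21, was the 1 gene called lower of 8 measured. It had 14.5, 18.3 and 12.1 CPM in cluster 5 against 31.1, 41.3 and 57.8 CPM in clusters 0 to 4, and its level was highest in cluster 2 (223.98, 107.1 and 162.8 CPM). Ccnd1, a cyclin of G1, had 230.6, 307.03 and 344.2 CPM in cluster 5 against 125.7, 219.95 and 168.5 CPM.

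**Figure D3:**
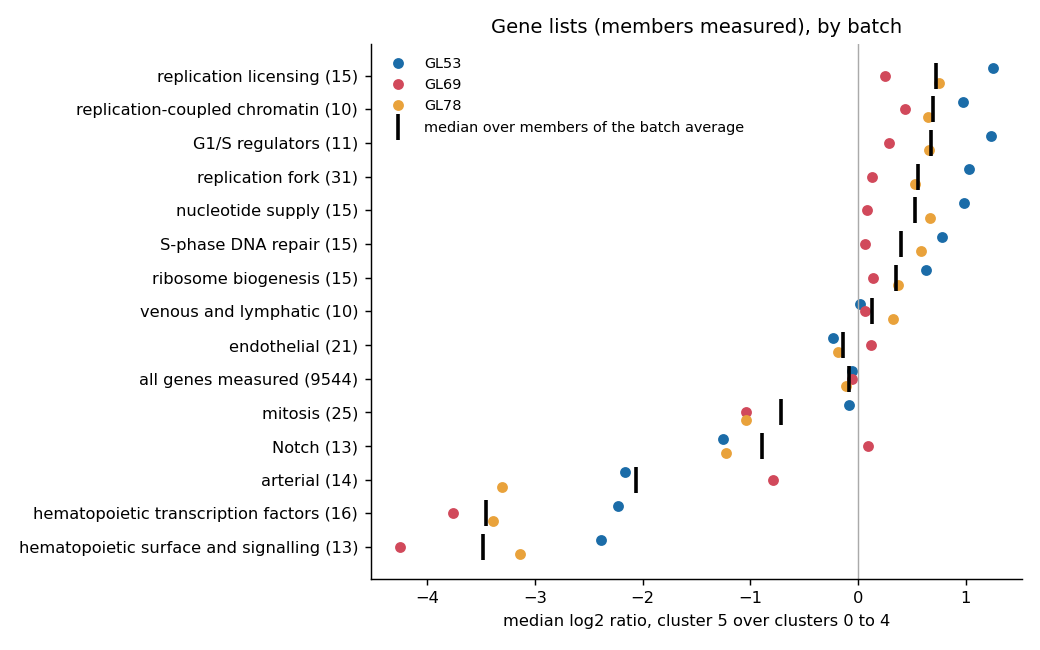
Median log2 ratio of cluster 5 over clusters 0 to 4 (horizontal axis) for 14 gene lists and all measured genes, with 1 point per batch, a bar for the median over members of the batch average, and the number of members measured in brackets. The S phase lists lie right of 0 in all 3 batches with GL69 nearest to 0, mitosis lies at −0.72, and arterial and hematopoietic lists lie furthest left.

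Cell by cell, the median level of replication genes was higher in cluster 5 than in clusters 0 to 4 among cells called G1 or G2M. Among cells called S the 2 medians were close. The CPM of 47 licensing and fork genes were added in each cell, a sum in which long transcripts weigh more. In cluster 5 the lowest sum was 3067 CPM, in the cell with macrophage genes, and the lowest of the other 56 cells was 3571 CPM. The median of cluster 5 was 8252 and the highest sum 12837 CPM. The median was 3495 CPM in cluster 0, 3569 in cluster 1, 6516 in cluster 2, 4333 in cluster 3 and 1561 in cluster 4. These medians pool the batches. In GL53, GL69 and GL78 cluster 5 had medians of 8283, 8146 and 7824 CPM, against 2734, 6628 and 4630 CPM in clusters 0 to 4. Cluster 2 alone had 7566.5, 7772 and 6004 CPM. In GL58 cluster 5 (4 cells) had 8646 CPM and cluster 2 (7 cells) had 8626 CPM. Ranges overlapped widely: 61.6% of the cells of clusters 0 to 4 were at or above the macrophage-marked cell, the lowest of cluster 5. Of clusters 0 to 4, 83 cells (13.7%) were at or above the median of cluster 5, 36 of them in cluster 2.

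Within G1 the distance was widest. The 18 cells called G1 in cluster 5 had a median of 7660 CPM, against 2407 CPM in the G1 cells of clusters 0 to 4. Cells called S had 8969 CPM in cluster 5 (25 cells) and 8580 CPM in clusters 0 to 4 (35 cells), and cells called G2M had 7840 CPM (14 cells) and 5121 CPM. The median of G1 cells in cluster 5 thus lay nearer to that of S cells in clusters 0 to 4 than to that of their G1 cells. In GL53 the G1 medians were 6538 CPM in cluster 5 (8 cells) and 2204 CPM in clusters 0 to 4, and in GL78 they were 7284 CPM (6 cells) and 2797 CPM. The S medians were 11282 and 7888 CPM in GL53, 8354 and 7788 CPM in GL69, and 8673 and 8893 CPM in GL78. The direction for S cells in GL78 was thus the other way round.

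**Figure D4:**
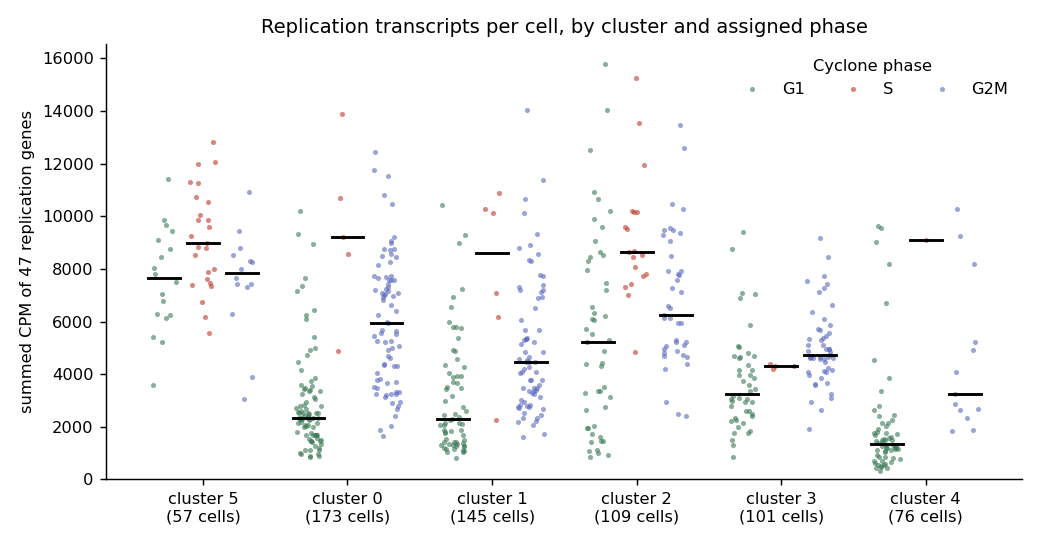
Summed CPM of 47 replication genes (vertical axis) in each cell of cluster 5 and clusters 0 to 4, split and coloured by Cyclone phase, with a bar at each median. G1 cells of cluster 5 have a median of 7660 CPM, against 1354 to 5232 CPM in the other clusters, while the S cells of cluster 5 and of clusters 0 to 4 together have medians of 8969 and 8580 CPM.

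Single genes showed the same split by phase. Cdc6 had reads in 16 of 18 G1, 25 of 25 S and 11 of 14 G2M cells of cluster 5, against 20.8% of G1, 80% of S and 50.6% of G2M cells of clusters 0 to 4. With every cell thinned to 50000 counts, Cdc6 was seen in 72.2% of G1 cells of cluster 5 and 18.6% of G1 cells of clusters 0 to 4. Ung had reads in 18 of 18 G1, 25 of 25 S and 8 of 14 G2M cells of cluster 5, against 35.3%, 85.7% and 36.6% in clusters 0 to 4. Both genes had fewer reads in the G2M cells of cluster 5, with median levels of 66.3 CPM for Cdc6 and 40.2 CPM for Ung there, against 212.8 CPM and 191.5 CPM in its G1 cells. Ccne2 had reads in 14 of 18 G1, 25 of 25 S and 13 of 14 G2M cells of cluster 5, with median levels of 41.3 CPM in its G1 cells and 28.03 CPM in its G2M cells.

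Across genes, G1 cells of cluster 5 were set against G1 cells of clusters 0 to 4 in GL53 and GL78. Of 9929 genes 1.73% were higher in both batches, among them 10 of 15 licensing genes, 8 of 31 fork genes, 6 of 15 nucleotide supply genes and 4 of 11 G1/S regulators. The licensing median was 1.38, and that of 21 measured mitosis genes was 0.94 with 6 called higher. Between S cells, 2.45% of 9880 genes were higher in both batches, with 1 of 15 licensing genes and no fork gene among them, and the licensing median was 0.29. Numbers of cells were small in this split, 8 and 6 G1 cells and 6 and 12 S cells of cluster 5.

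Arterial genes were lower in cluster 5 than in clusters 0 to 4 together, a set that includes the Gja4-rich clusters 1 and 4. In GL53 and GL78 Gja4 had 239.1 CPM in cluster 1. Whether cluster 5 differed from clusters 0 and 3 in these genes is not shown here. The median over 14 genes was −2.06 (−2.45 where a side without counts was set to 3 counts), with −2.16 in GL53, −0.79 in GL69 and −3.30 in GL78, and 4 were called lower. Gja4, which encodes connexin 37, had 8.67, 0 and 0 CPM in cluster 5 against 472.6, 29.5 and 377.3 CPM in clusters 0 to 4; 2 of 57 cells had a read, against 75 of 76 in cluster 4. Gja5, connexin 40, had 1.31, 0 and 0 CPM against 188.1, 11.001 and 228.4 CPM. Mecom, a transcription factor of blood stem cells and arteries, had 38.5, 12.3 and 10.2 CPM against 176.2, 56.4 and 96.9 CPM. Sox17, an endothelial transcription factor counted among the arterial genes, had 137.003, 234.2 and 222.5 CPM against 176.6, 187.1 and 207.5 CPM, so not every arterial gene was low.

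Against the same clusters together, Notch genes had a median of −0.89 over 13 measured of 16. It was −1.25 in GL53, 0.09 in GL69 and −1.23 in GL78, and 2 genes were called lower, Hey1 and Jag2. Hey1, a Notch target, had 18.5, 11.7 and 7.53 CPM in cluster 5 against 113.1, 47.4 and 94.8 CPM in clusters 0 to 4. Among receptors, Notch1 had 71.2, 81.8 and 74.99 CPM against 171.2, 90.8 and 183.2 CPM. Among ligands, Dll4 had 38.1, 27.3 and 32.5 CPM against 146.004, 32.9 and 128.5 CPM, and Jag1 had 13.04, 12.8 and 11.9 CPM against 116.4, 10.52 and 49.7 CPM. Notch1, Dll4 and Jag1 of clusters 0 to 4 were lowest in GL69, where clusters 1, 3 and 4 had fewer than 5 cells each.

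General endothelial genes were near the level of the other cells: the median over 21 genes was −0.14 and none was called. Of these, 8 were below 0 in every batch (38.1%, against 25.9% of all genes) and 3 were above 0 (14.3%, against 15.6%). Pecam1 had 1171, 454.7 and 561.4 CPM in cluster 5 against 1239, 458.9 and 800.1 CPM, and Emcn, a sialomucin of veins and capillaries, had 1876, 1292 and 1157 CPM against 1553, 891.4 and 929.3 CPM. Venous and lymphatic genes had a median of 0.13 over 10 genes, with Nr2f2, the venous transcription factor, at 101.4, 60.3 and 71.8 CPM against 87.1, 57.5 and 46.3 CPM.

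Hematopoietic genes were low in cluster 5 when all of clusters 0 to 4 were set against it. The median over 16 measured hematopoietic transcription factors of 18 was −3.46 (−3.82 with sides without counts set to 3 counts) and 9 were called lower, and it was −3.48 over 13 hematopoietic surface and signalling genes, with 10 called lower. Against clusters 0, 1 and 3 alone these medians were −0.19 and 0.16, so the low level rested on clusters 2 and 4. Runx1, the factor needed for blood to emerge from endothelium, had 2.18, 0.345 and 0 CPM in cluster 5 against 23.8, 62.5 and 55.96 CPM in clusters 0 to 4, with reads in 4 of 57 cells of cluster 5 and in 96.3% of the cells of cluster 2. Kit, the receptor used for the gates, had 145.99, 84.6 and 76.9 CPM against 148.9, 117.1 and 166.3 CPM.

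Gfi1 (chr5:107716657-107726036, − strand), the gene behind the reporter, had no read in any of the 57 cells, which, taking 3 counts as the limit, allows up to 5.26% of cells with a read and says nothing of cells that express the gene without one. Clusters 0 to 4 had 5.92, 18.9 and 15.1 CPM in GL53, GL69 and GL78. With 3 counts per batch set for cluster 5, its level would be 31.6-fold, 73-fold and 85.6-fold lower. Reads without molecular identifiers are not independent, and 1 cell with reads could bring more than 3 counts. These folds are therefore not firm lower bounds. Of cells sorted through a GFI1+ gate, reads of Gfi1 were found in 0 of 54 cells in cluster 5, none in cluster 0, 2 cells in cluster 1, 46 of 99 cells in cluster 2, 0 of 85 cells in cluster 3 and 8 of 73 cells in cluster 4. Cluster 5 was thus like clusters 0 and 3 in having GFI1+ cells by fluorescence without Gfi1 reads.

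Genes outside these lists were also lower in cluster 5. Of the lower genes 59 had at least 10 CPM and reads in at least 25% of the other cells in each batch. They included Vwf, the von Willebrand factor of endothelium, with 91.1, 1.47 and 18.8 CPM in cluster 5 against 815.7, 38.4 and 461.0 CPM, and 4521 and 2254 CPM in cluster 4 in GL53 and GL78. Gsn, an actin severing protein, had 1.02 CPM against 52.8 CPM on average over batches, Adgrg1, a receptor of blood stem cells, 12.2 against 161.3 CPM, and Apoe, a lipid carrier, 69.7 against 532.0 CPM.

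Cluster 0, with an Aplnr level close to that of cluster 5 (log2 ratio −0.19 ± 0.08), could be compared in all 3 batches, with 6 cells in GL69. Of 9381 genes 13 were higher in cluster 5 (0.139%) and 1.1% were lower. In GL53 and GL78 alone, the batches left for clusters 1 and 3, 50 were higher (0.523%) and 4.14% lower. Licensing genes had a median of 0.78 with 2 of 15 called higher, Cdc6 and Cdt1, and mitosis genes −0.52. Cdc6 had a log2 ratio of 2.10 ± 0.52, Ung 2.20 ± 0.31, Cdt1 1.33 ± 0.25 and Ccne2 1.79 ± 0.68 over cluster 0. Vwf was lower, with 37.1 CPM in cluster 5 and 328.1 CPM in cluster 0. The venous and lymphatic list had a median of −0.63 over 10 genes, with none called.

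Cluster 5 was lower than cluster 1 in part of the sprouting and arterial genes. In GL53 and GL78, 1.24% of 9401 genes were higher in cluster 5 than in cluster 1 and 3.13% were lower. Higher genes included 6 of 15 licensing and 4 of 31 fork genes, and also Bmp4, a growth factor, with 108.2 CPM in cluster 5 against 26.6 CPM in cluster 1. Lower ones included 4 of 7 measured sprouting genes, with a list median of −1.35, and 4 of 9 measured arterial genes. Esm1, a gene of endothelial tip cells, had no count in cluster 5 in these 2 batches and 122.5 CPM in cluster 1, Dll4 had 35.3 against 263.1 CPM, Hey1 12.997 against 166.5 CPM and Unc5b, a guidance receptor of tip cells and arteries, 8.43 against 158.1 CPM.

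Cell cycle genes were also among those that set cluster 5 apart from cluster 3. In GL53 and GL78, 1.2% of 9254 genes were higher in cluster 5 and 0.929% were lower. Higher were 3 of 15 licensing genes, 4 of 11 G1/S regulators and 4 of 31 fork genes. Higher too were E2f8, a repressor of the E2F family, with 43.9 CPM in cluster 5 and 2.19 CPM in cluster 3, and Brca1, a repair gene, with 45.5 and 6.19 CPM. Hist1h1b, a linker histone, had 30.5 and 3.31 CPM. Mitosis genes had a median of 0.62 in GL53 and −1.16 in GL78, so their direction was not settled.

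Inside cluster 5, gates, stages and phases were set side by side with few cells each. GFI1+ HE cells over GFI1+ IAHC cells had a licensing median of 0.63 in GL53 (11 and 9 cells) and 0.19 in GL78 (9 and 9 cells), and a mitosis median of −1.10 and 0.14. By stage, compared only in GL78 with 5 cells at E11.5 and 15 at E10.5, licensing genes had a median of 0.21. Stage and plate cannot be told apart in that batch. By phase, S cells over G1 cells had a mitosis median of 1.77 in GL53 and 0.77 in GL78 and a licensing median of 0.56 and 0.02. S cells over G2M cells, in GL53 only, had −1.52 for mitosis and 0.78 for licensing genes. Licensing genes thus spread less over the phases of cluster 5 than mitosis genes did.

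Fluorescence from the index sort was not used to draw the clusters and was recorded for 49 of 57 cells of cluster 5 and 566 of 604 cells of clusters 0 to 4. Gates had been set on CD31, GFI1 and cKIT, so values are compared within a gate and batch, in arbitrary units. Among GFI1+ IAHC cells of GL53, CD31 had a lowest, median and highest value of 42129, 82560 and 129336 in cluster 5 (9 cells), against a median of 52779 in clusters 0, 1 and 3 (79 cells) and 8372 in cluster 2 (22 cells). In GL78 the median of CD31 was 29067 in cluster 5 (9 cells, 19834 to 41442), 39001 in clusters 0, 1 and 3 (95 cells) and 10759 in cluster 2 (51 cells). CD31 in cluster 5 was thus above clusters 0, 1 and 3 in GL53 and below them in GL78, and above cluster 2 in both.

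CD45, a surface protein of blood cells, had a median of 881 in cluster 5 in GL53, against 964 in clusters 0, 1 and 3 and 9619 in cluster 2, and 558 in GL78, against 788 and 1930. JAG1 had 14357 in cluster 5 in GL53 against 10651 in clusters 0, 1 and 3, and 7534 against 11498 in GL78. NOTCH1 had 1627 against 1288 in GL53 and 824 against 951 in GL78, and the tomato signal given as GFI1 had 1185 against 729.9 in GL53 and 445 against 602 in GL78. For none of CD31, JAG1, NOTCH1 and GFI1 was the direction the same in these 2 batches, and for CD45 both medians were lower in cluster 5. In GL69, with 7 cells of cluster 5 and 5 of clusters 0, 1 and 3, the medians of cluster 5 were lower for all 5 signals, with 31832 against 46337 for CD31 and 626 against 777 for CD45. In the GFI1+ HE gate the direction of CD45 was the other way: 702 in cluster 5 (11 cells) against 581 in clusters 0, 1 and 3 in GL53, and 499 (9 cells) against 442 in GL78. CD31 was slightly lower there in cluster 5 in both batches, with 45174 against 51283 and 32092 against 33691. The direction of CD45 thus differed between the gates.

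**Figure D5:**
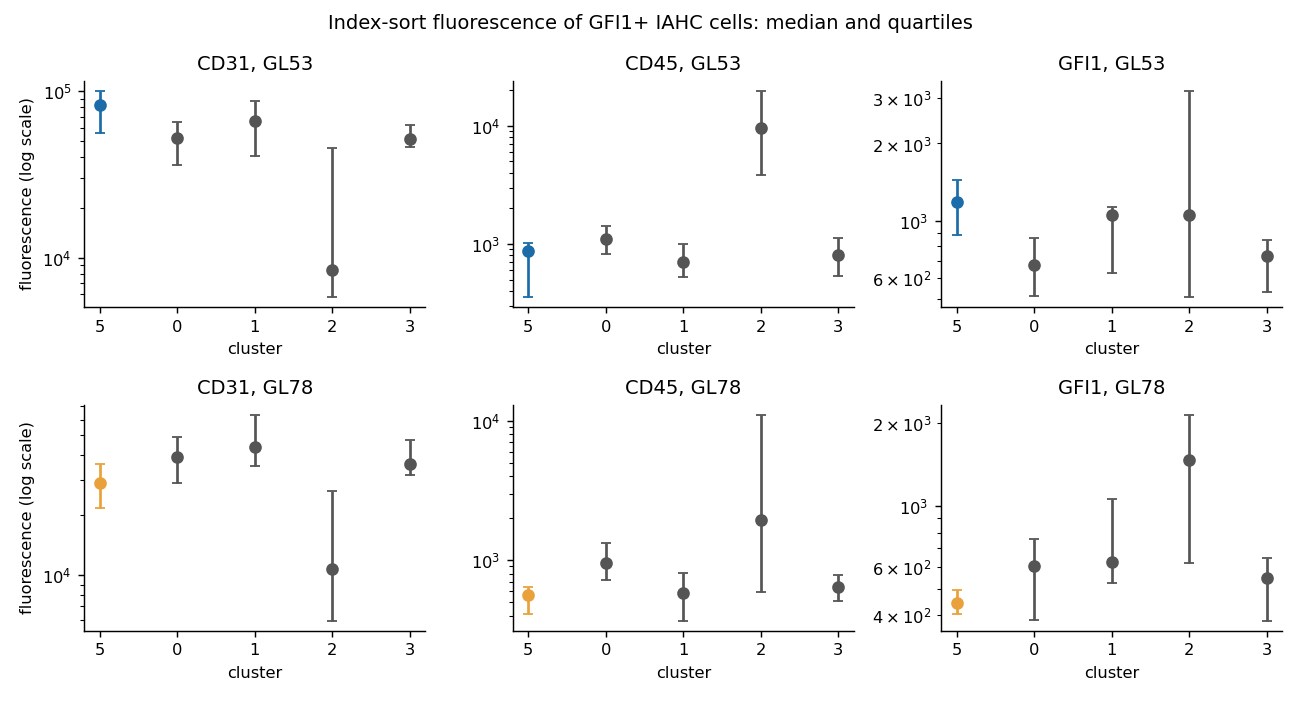
Median (point) and quartiles (bar) of CD31, CD45 and GFI1 fluorescence, log axis, in GFI1+ IAHC cells of GL53 (upper row) and GL78 (lower row) for cluster 5, in colour, and clusters 0, 1, 2 and 3. CD45 of cluster 5, at 881 and 558, lies with clusters 0, 1 and 3 and below the medians of cluster 2, at 9619 and 1930.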

How the data were processed

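RNA of single sorted cells was sequenced after Smart-Seq2, and the authors deposited raw counts of reads per gene in 860 cells, made with STAR 2.7.3 (mm10) and HTSeq 0.9.1, and a cell annotation from Scanpy 1.4.4. The annotation holds the cluster, the phase and the batch (other), the mitochondrial fraction that the authors computed, and index-sort intensity values as deposited. Of its columns, 5 with map coordinates and pseudotime were not used. The authors regressed depth, mitochondrial share and cell cycle out before Louvain clustering and made no batch correction. Each library is 1 sorted well, so no barcodes are shared, and no doublet caller was run.

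Counts were summed per cluster and batch, without 92 spike-ins that had no counts, and scaled to CPM (pseudocount 1 CPM, at least 10 CPM on either side, at least 5 cells per batch and side) with numpy 2.4.6 and pandas 2.3.3. Gene IDs were named with the reference table (45143 of 46078 genes) and positions come from GENCODE on GRCm38, the build of mm10. Named genes had at least 10 CPM and reads in at least 25% of cells of the higher side in every batch and differed at least 2-fold in each, up to 12 per direction. Members of 32 gene lists may be named whatever their values. The members, lists and rules were chosen with earlier results of these data known. Intervals are exact binomial (Clopper-Pearson) at 95%, and cover counting error only, since reads without molecular identifiers are not independent molecules. No test was made: each cell is its own sample, and no label names an animal. Where genes overlap, reads on opposite strands cannot be told apart, since no source used here gives the strand setting of the count. The scripts were tested on simulated data. Other scaling, pseudocounts, filters, cell weights, thinning to 50000 counts, batches, strata and sets of other cells were tried.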

Additional observations from a re-analysis of the deposited data

How the results depend on the processing

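Under the alternatives, 31 values moved by more than the SD over batches (counts of genes by more than 1.5 times) and 3 turned direction, and all others stayed within these limits. With clusters 0, 1 and 3 as the other cells, Aplnr turned to −0.10 and the hematopoietic surface and signalling median to 0.16, the hematopoietic transcription factor median was −0.19, and 0.162% of genes were higher and 0.585% lower. With cells of the same phase, the mitosis median turned to 0.040, Aplnr was 0.78, Cdc6 1.47 and Ung 0.98, and 0.0102% of genes were higher. Within batch, stage and gate, Aplnr was 0.78, with 0.0420% of genes higher and 1.49% lower. A pseudocount of 0.1 CPM gave 0.147% of genes higher and a hematopoietic transcription factor median of −4.55, and one of 5 CPM gave 0.0419% higher, 1.68% lower and −1.76. A filter of 50 CPM gave 0.0650% higher, 0.845% lower and −0.71, and no filter gave 545 genes lower, 1.94% of a larger table. Leaving out 1 batch gave 0.257 to 0.329% of genes higher and 3.77 to 5.34% lower, licensing medians of 0.54 to 1.00, mitosis medians of −1.04 to −0.50, arterial medians of −2.74 to −1.16, hematopoietic transcription factor medians of −3.78 to −3.13, Aplnr ratios of 0.35 to 0.47 and S share differences of 29.1 to 46.3 percentage points. Over cluster 0, leaving out GL69 gave 0.523% of genes higher and 4.14% lower, an alternative chosen after seeing the data, as was leaving out the cell with macrophage genes. No paired analysis was possible because the labels give no replicate number that groups share, and the ratios were instead taken within batches. With 12 to 21 cells of cluster 5 per batch, genes with few reads are known least well. The causes of these shifts were not tested.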
